A study of Prunus yedoensis with 90 samples.

Results

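The 4 libraries described here are apical buds of the Yoshino cherry 'Somei-yoshino' at Fukuoka, the southernmost of 3 Japanese sites. Those of the later date were collected on 26 September 2018 and those of the earlier date on 29 August 2018, 28 days before, each time from the same pair of trees, tree 2 and tree 3. They were picked by site, tissue and date from the 90 libraries of the series. The series holds 66 bud libraries, with 11 dates and 2 trees at each of Fukuoka, Tsukuba and Hokkaido, and 24 leaf libraries from the first 4 dates. All trees are the same cultivar, grown outdoors with no treatment given in the labels. The cultivar is propagated by grafting, so the trees are copies of 1 clone and the spread between them holds little genetic variation. Each date has 2 trees, and each library is 1 sample of buds cut around midday from the sunlit crown. The labels do not say whether a bud was a flower bud or a leaf bud, and a bud holds several cell types, so fewer cells of a type and less RNA per cell cannot be told apart.

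Cherry buds form in the leaf axils and at the shoot tip in early summer, and flower primordia develop inside them while the leaves are still green. In autumn the buds stop developing and become dormant, first held back by other organs of the shoot and then by signals within the bud, which winter cold removes before the buds open in spring. In peach and other Prunus trees, the MADS-box genes known as DAM genes (dormancy-associated) are known for their seasonal expression around dormancy. The comparison of 26 September with 29 August covers the change from late summer to early autumn at the southern site. The deposited table pairs no gene ID with a name: of 87 symbols in 10 lists of dormancy, flowering, hormone, cold, light and cell cycle genes, 0 matched an ID. No list could be described, and the bud could not be checked against marker genes. Single genes are given by ID, without a role. A naming rule allowed 2 in each direction per comparison, and not all of these are given. A gene singled out after its values were seen is marked as such.

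Levels are in TPM (a relative transcript abundance, scaled for gene length and library total), and changes are differences of log2(TPM + 1), which understate the change of genes at low TPM. A gene was called when its Benjamini-Hochberg adjusted p was under 0.05 in limma and its change was at least 1 on this scale. With 2 trees a date, the error came from the spread between the 2 trees of each of the 33 combinations of site and date in the 66 bud libraries. An exact permutation test of 2 against 2 cannot give a 2-sided p under 0.333 for any single gene. In all, 40161 genes with a mean of at least 1 TPM over the buds were tested. Every library sums to the same total, so the depth is unknown. Genes over 1 TPM numbered 39086 and 38782 on 26 September (tree 2, tree 3), against 37782 and 38228 on 29 August, and the other 62 bud libraries held between 35471 and 40376.

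One of the 4 libraries stood apart from its partner. Across the genes tested, tree 2 and tree 3 correlated on 26 September with r = 0.935, the lowest of the 33 pairs of bud libraries. The other 32 pairs lay between 0.952 and 0.984, with 0.964 for the trees on 29 August. On 26 September, 225 genes were at least 3 higher in tree 2 than in tree 3 on the log2(TPM + 1) scale, and 11 were at least 3 higher in tree 3. In the other pairs between 6 and 144 genes were that much higher in the tree labelled replicate 1, and between 5 and 34 in the tree labelled replicate 2. Several results on the rise are therefore given with and without the 26 September library of tree 2. The labels name no batch or date of library preparation that would set it apart.

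Between 29 August and 26 September, 2627 of 40161 genes were called (6.54% of those tested), 1671 rising (4.16%) and 956 falling (2.38%). The difference between the trees had a standard deviation of 0.613 on 26 September, against 0.326 to 0.533 in the other 32 pairs. An error pooled over all pairs can thus understate the spread on that date. Fitted on the 4 libraries alone, 101 genes were called, 11 rising and 90 falling. The preceding interval of the same length, 29 August against 1 August, gave 32 called genes (0.0797%), 21 of them rising (0.0523%) and 11 falling (0.0274%). The following interval, 24 October against 26 September, gave 1634 (4.07%), 414 rising (1.03%) and 1220 falling (3.04%). Its split turned to 3026 rising and 1821 falling without a minimum change, with a median change of all genes of 0.16, and was 233 rising and 289 falling without the 26 September library of tree 2. These 3 intervals share libraries, and no difference between their counts was tested. The median change of all genes from 29 August to 26 September was 0.11, so the scaling moved the split. As deposited, 63.6% of the called genes rose, against 50.5% after quantile normalization (1337 rising, 1309 falling) and 49.8% after median scaling (1227 rising, 1236 falling). Without the 26 September library of tree 2, 1731 genes were called (4.31%), 989 rising (2.46%) and 742 falling (1.85%), with the remaining tree assumed to vary like the other trees. Of those, 697 of the rising genes and 621 of the falling genes were also called with all libraries, 70.5% and 83.7% of the calls made without it, and 41.7% and 65.0% of the calls made with it.

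The falling genes moved alike in both trees. Their median change was -1.47 in tree 2 and -1.54 in tree 3, 609 of the 956 (63.7%) fell by at least 1 in each tree, and 2 had the opposite sign in tree 3. Falls of at least 5 on the log2 scale were called for 37 genes. The falling genes held 2.41% and 3.22% of the TPM on 26 September (tree 2, tree 3), against 11.7% and 15.2% on 29 August. Over 100 TPM in both trees were 46 of them on 26 September, against 211 on 29 August. These values describe genes that were selected on the same 4 libraries, so they carry no test.

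**Figure D1:**
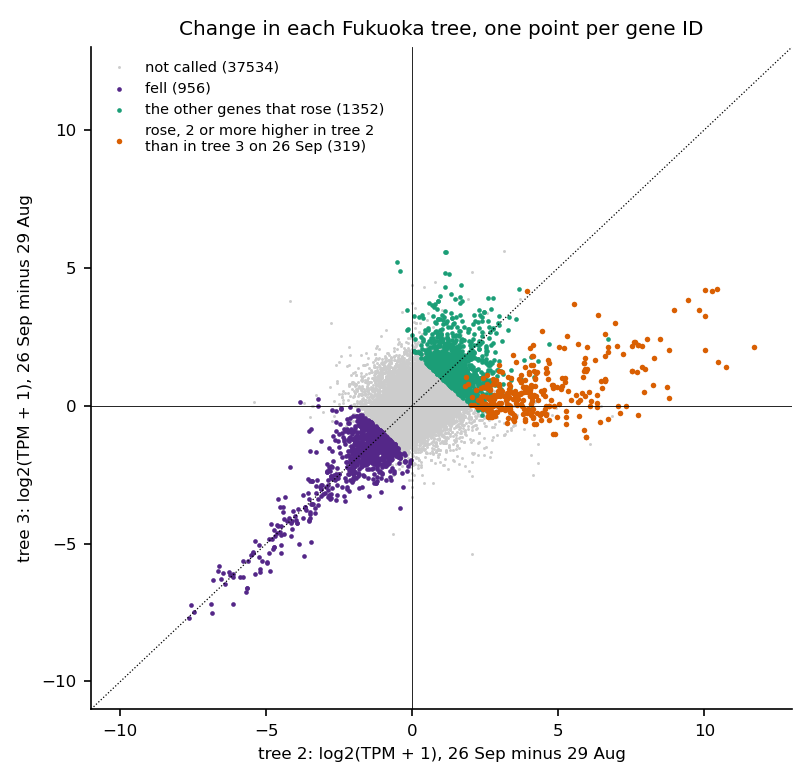
Change from 29 August to 26 September in tree 2 (horizontal) and tree 3 (vertical), as differences of log2(TPM + 1), with 1 point for each of the 40161 genes tested. The 956 genes that fell lie along the dotted line of equal change, while 319 of the genes that rose (orange) lie far to the right of it, with a median change of 3.99 in tree 2 and 0.41 in tree 3.

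The largest fall among the genes the naming rule allows was that of CYE_r3.1SPE4_g009480.1. It had 0.208 and 0.713 TPM on 26 September (tree 2, tree 3), against 243 and 359 TPM on 29 August. The change was -7.66 in tree 2 and -7.72 in tree 3, and the fitted change was -7.69 (SE 0.32, adjusted p = 4.53e-20, limma). At Fukuoka this gene climbed through the summer, with 3.58 and 5.95 TPM on 7 June, 55.6 and 38.0 on 4 July and 127 and 114 on 1 August. From 24 October to 13 March it stayed under 1 TPM in both trees, between 0 and 0.772 TPM. At Tsukuba it was still at 198 and 194 TPM on 7 October, against 47.0 and 36.6 TPM on 5 September, and at 1.97 and 0.433 TPM on 16 November. At Hokkaido no bud library exceeded 4.27 TPM.

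The other named fall was that of CYE_r3.1SPA2_g034430.1, one of the most abundant transcripts of late summer. It had 21.3 and 26.5 TPM on 26 September, against 4007 and 4883 TPM on 29 August, a change of -7.48 (SE 0.65, adjusted p = 4.87e-11, limma). The 2 trees fell alike, by 7.49 and 7.47. On 1 August the gene was at 4575 and 5517 TPM, and from 26 September on no Fukuoka bud library exceeded 26.5 TPM. Tsukuba buds had 5050 and 4305 TPM on 7 October, against 679 and 457 TPM on 5 September, and 21.3 and 8.57 TPM on 16 November. Hokkaido buds reached 374 and 44.4 TPM on 13 August and 2.11 and 0.948 TPM on 7 September. CYE_r3.1SPE2_g027840.1 had nearly the same course, with 23.9 and 37.1 TPM on 26 September against 4765 and 5708 TPM on 29 August. No source used here says how reads that match both IDs were counted, so the 2 levels may not be separate measurements. In both named falls the groups of 26 September and 29 August lay far apart. They were chosen on these same libraries as the largest called falls with the same sign in each tree. The gap between the dates was thus fixed by the choice and is no further evidence.

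**Figure D2:**
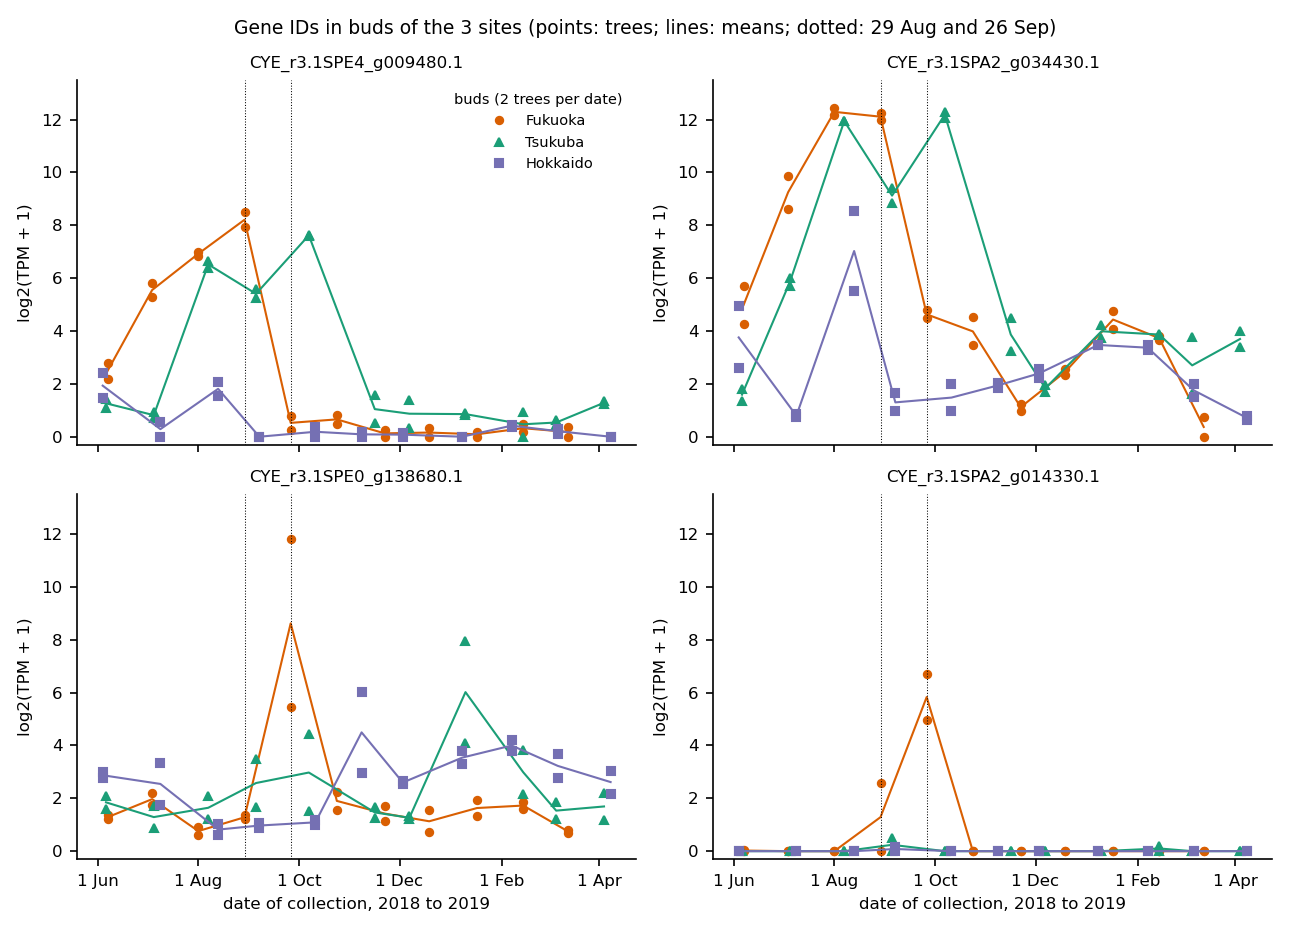
Level of 4 genes in the buds of Fukuoka, Tsukuba and Hokkaido from June 2018 to April 2019, as log2(TPM + 1). Points are trees, lines join the means of 2 trees, and the dotted lines mark 29 August and 26 September. The 2 upper genes stood high in Fukuoka on 29 August and low on 26 September, while in Tsukuba they were high on 7 October. The lower 2 peaked in Fukuoka on 26 September, CYE_r3.1SPE0_g138680.1 mainly in 1 tree.

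The fall followed a climb through the summer. The median level of the 956 genes in Fukuoka buds was 3.82 on 7 June, 4.28 on 4 July, 4.78 on 1 August, 4.88 on 29 August and 3.15 on 26 September on the log2(TPM + 1) scale. It was 3.38 on 24 October and lay between 2.60 and 2.92 from November to March. Among the 9 Fukuoka dates not used in the comparison, 661 of them (69.1%) were highest on 1 August, against 9.50% of all tested genes, and 813 (85.0%) between June and 1 August, against 26.5%. In contrasts of unused Fukuoka libraries, 544 of the 956 (56.9%) were lower on 24 October than on 1 August, where 5.14% of all genes were called lower, and 2 were higher. On 17 January against 4 July 517 were lower (54.1%, background 15.9%), and on 13 March against 7 June 447 were lower (46.8%, background 9.72%). These counts describe the list and are no test of it.

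**Figure D3:**
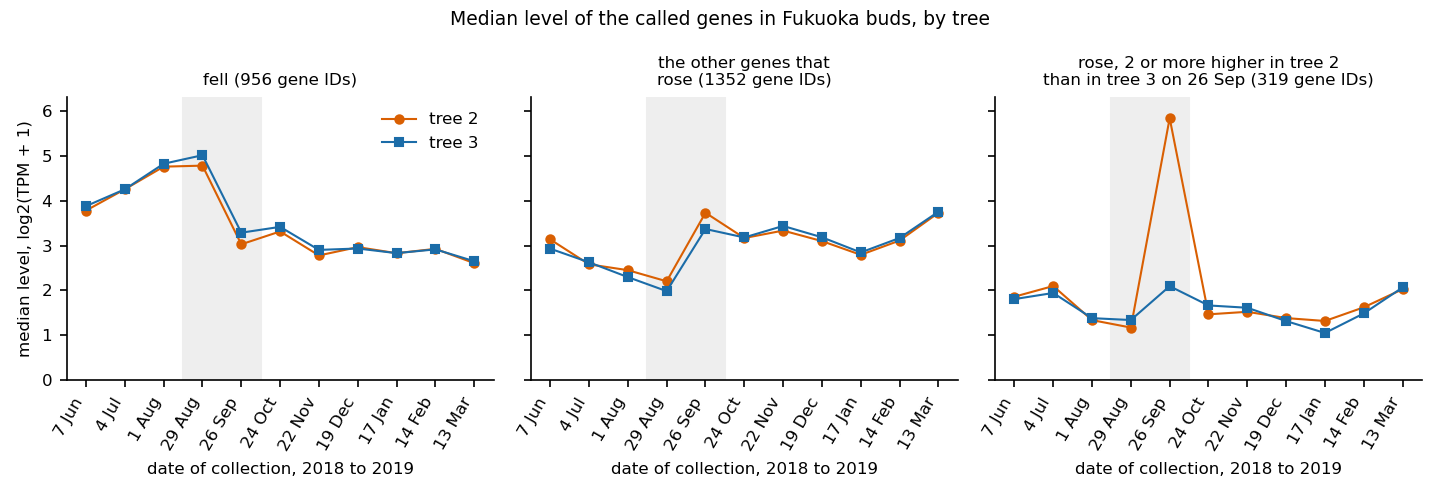
Median level in each library of tree 2 and tree 3 over the 11 Fukuoka dates, as log2(TPM + 1), for the 956 genes that fell, the 1352 other genes that rose and the 319 genes that rose with a level at least 2 higher in tree 2 than in tree 3 on 26 September. The shaded dates are those compared. The trees run together in the first 2 panels and part on 26 September in the third, at 5.84 in tree 2 and 2.1 in tree 3.

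The rising genes were less alike in the trees. Their median change was 1.52 in tree 2 and 1.20 in tree 3, 723 of the 1671 (43.3%) rose by at least 1 in each tree, and 89 had the opposite sign in tree 3. They held 14.0% and 6.04% of the TPM on 26 September (tree 2, tree 3), against 2.61% and 1.92% on 29 August. In unused Fukuoka libraries, 624 (37.3%) were higher on 24 October than on 1 August, where 7.2% of all genes were called higher, and 99 (5.92%) were lower, with a background of 5.14%. Of the 989 genes that rose without the 26 September library of tree 2, 580 (58.6%) were higher on 24 October than on 1 August.

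Later in winter the rising genes were called in both directions. On 17 January against 4 July, 487 of the 1671 were higher (29.1%, background 19.5%) and 464 were lower (27.8%, background 15.9%). On 13 March against 7 June, 592 were higher (35.4%, background 12.8%) and 162 were lower (9.69%, background 9.72%). Of the 989 genes that rose without the 26 September library of tree 2, 449 were higher (45.4%) and 149 lower (15.1%) on 17 January against 4 July, so that the lower share was no longer above the background. On 13 March against 7 June, 418 of the 989 were higher (42.3%) and 63 were lower (6.37%). Among the 9 unused dates, 642 of the 1671 (38.4%) were highest on 13 March, against 21.6% of all genes. On 1 August 570 of the 1671 (34.1%) were lowest, against 16.4%. Of the 989 genes, 370 (37.4%) were highest on 13 March and 456 (46.1%) were lowest on 1 August. The median course of the 1352 rising genes that were not far higher in tree 2 ran from 2.08 on 29 August through 3.52 on 26 September and 3.14 on 24 October to 2.83 on 17 January and 3.75 on 13 March. For these genes the median of late September lay between those of October and March.

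The largest rises rest mainly on the library that stood apart. CYE_r3.1SPE0_g138680.1 had 3580 and 42.4 TPM on 26 September (tree 2, tree 3), against 1.58 and 1.3 TPM on 29 August. The change was 10.44 in tree 2 and 4.24 in tree 3, with a fitted change of 7.34 (SE 1.12, adjusted p = 8.08e-06, limma). Both trees rose, by very different amounts, and without the library of tree 2 the change was 4.16 (adjusted p = 0.00655, limma). CYE_r3.1SPE3_g019780.1 had 3057 and 35.4 TPM on 26 September, against 1.48 and 1.03 TPM on 29 August, a change of 7.21 (SE 1.09, adjusted p = 7.82e-06, limma), and 4.02 without that library (adjusted p = 0.0063, limma). With tree 2 left out on all dates, neither gene was called (adjusted p = 0.0618 for the first and 0.0559 for the second, limma). The 2 IDs had nearly equal levels throughout and may share reads. In the other bud libraries the first had at most 247 TPM, on 10 January in Tsukuba.

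In all, 319 of the 1671 rising genes were at least 2 higher in tree 2 than in tree 3 on 26 September. That cut was set after the values were seen, and the members were chosen for the gap between the trees, so what follows is a description. Their median level was 56.2 TPM in tree 2 and 3.27 TPM in tree 3 on 26 September, against 1.26 and 1.53 TPM on 29 August. They made up 7.63% of the TPM of the tree 2 library and 0.318% of that of tree 3, and between 0.164% and 1.04% in each of the 89 libraries other than that of tree 2. For 199 of them (62.4%) that library held the highest level of all 90, 127 were at least 1 above every other library on the log2 scale, and 42 were at least 3 above. Over 1000 TPM were 14 of them there and 2 in any other library. The change in tree 3 was at least 1 for 80 and below 0 for 83, and 36 were called without the library. Only 28 (8.78%) were higher on 24 October than on 1 August, close to the 7.2% of all genes.

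**Figure D4:**
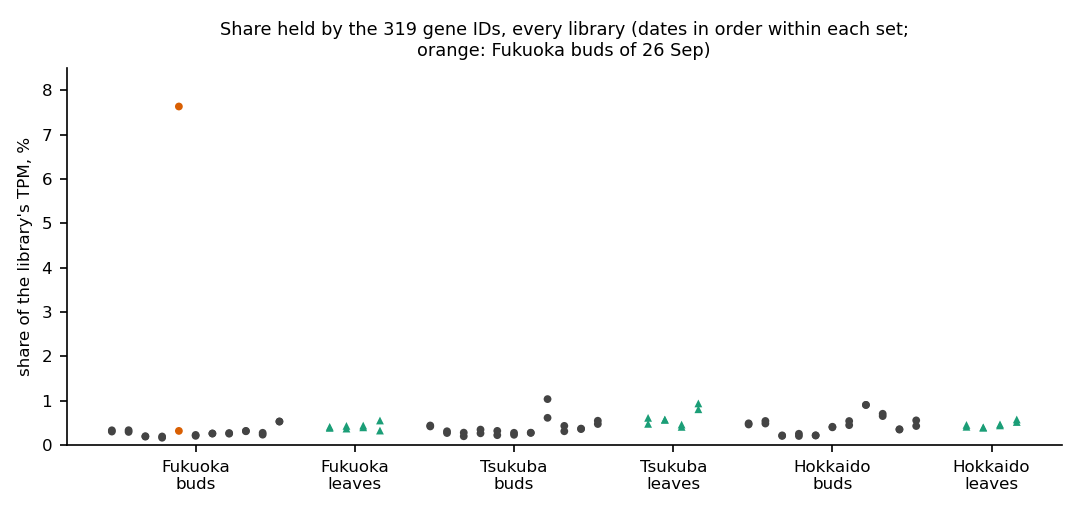
Share of each library's TPM held by the 319 genes that rose with a level at least 2 higher in tree 2 than in tree 3 on 26 September, for all 90 libraries by site and tissue, with dates in order from left to right. The orange points are Fukuoka buds of 26 September, at 7.63% in tree 2 and 0.318% in tree 3. No other library exceeded 1.04%.

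Another gene was singled out after its values were seen, for a large rise with the trees within 2 of each other on the log2 scale. CYE_r3.1SPA2_g014330.1 had 102 and 30.4 TPM on 26 September, against 0 and 4.95 TPM on 29 August, a change of 4.55 (SE 0.37, adjusted p = 1.26e-11, limma). The change was 6.69 in tree 2 and 2.40 in tree 3, and 3.69 without the 26 September library of tree 2. Tree 2 was listed at 0 on 29 August, which can be a failed estimate. The values 6.69, 4.55 and 3.69 all use that 0, and only the change in tree 3 does not. Outside these 4 libraries no bud library exceeded 0.394 TPM, and no leaf library exceeded 1.98 TPM, so the SE comes mostly from libraries near 0. The gene was listed at 0 in both trees on 24 October, and no fold is given. Among the buds it was above 1 TPM on these 2 dates alone, in both trees on the later one and in tree 3 on the earlier one.

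The adjoining intervals at Fukuoka are given for the same trees. CYE_r3.1SPE8_g032930.1 had 21.1 and 25.2 TPM on 29 August, against 5.55 and 3.31 TPM on 1 August (change 2.18, adjusted p = 0.0499, limma), and was at 4.82 and 5.06 TPM on 26 September. CYE_r3.1SPE2_g020790.1 was listed at 0 in both trees on 29 August, and had 20.3 and 17.599 TPM on 1 August and 11.7 and 17.56 TPM on 26 September. No fold is given for it, since a listed 0 can be a failed estimate. CYE_r3.1SPA4_g008840.1 had 22.1 and 8.56 TPM on 29 August, against 93.1 and 36.0 TPM on 1 August (change -1.99, adjusted p = 0.0326, limma), and 85.1 and 60.2 TPM on 26 September. These genes were named for their change on 29 August against 1 August, and 26 September is set against the same 29 August libraries, so the return is partly fixed by the choice.

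On 24 October against 26 September, CYE_r3.1SPE3_g018880.1 fell most under the naming rule, to 0 and 0.936 TPM, against 5472 and 23.2 TPM on 26 September (change -8.03, SE 1.33, adjusted p = 0.000161, limma). Nearly all of that level came from tree 2. Without the 26 September library of tree 2, 522 genes were called in this interval, and with tree 3 alone on all Fukuoka dates 54 were called. CYE_r3.1SPA0_g005150.1 rose most, with 18.3 and 38.9 TPM on 24 October, against 0.344 and 0.259 TPM on 26 September (change 4.41, SE 0.52, adjusted p = 1.57e-06, limma). On 29 August it had been at 0 and 0.372 TPM.

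The same step of the calendar was compared with 4 steps at the other sites, each tested as a difference of changes. From 29 August to 26 September at Fukuoka, 4041 genes changed differently from 5 September to 7 October at Tsukuba (10.1%), 2496 more positively (6.21%) and 1545 more negatively (3.85%). Against 7 September to 11 October at Hokkaido, 3700 differed (9.21%), 2193 more positively (5.46%) and 1507 more negatively (3.75%). Against the earlier steps, 2858 differed from 7 August to 5 September at Tsukuba (7.12%) and 1795 from 13 August to 7 September at Hokkaido (4.47%). Without the 26 September library of tree 2 the 4 counts were 3483, 2832, 1842 and 1346. The dates, the length of the interval and the site differ together in these comparisons and cannot be told apart, and each site has its own pair of trees. The scaling also moved their split: for the later Tsukuba step 61.8% of the called differences were more positive in Fukuoka as deposited and 49.3% after quantile normalization, and for the earlier Tsukuba step 71.3% and 44.5%.

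Of the genes that fell at Fukuoka, more were called higher than lower over the later step at Tsukuba, and fewer at Hokkaido. At each of these sites the earlier and the later step share the September libraries, with opposite sign. Calls in the earlier and the later step of a site are thus not independent. From 5 September to 7 October at Tsukuba, 108 of the 956 were higher (11.3%), where 1.34% of all genes were called higher, and 58 were lower (6.07%, background 2.29%). From 7 September to 11 October at Hokkaido, 21 were higher (2.20%, background 2.02%) and 93 were lower (9.73%, background 2.33%). Over the earlier steps, 238 were lower from 13 August to 7 September at Hokkaido (24.9%, background 3.14%) and 92 were lower from 7 August to 5 September at Tsukuba (9.62%, background 1.86%). Their share of the TPM at Tsukuba was 9.58% and 10.1% on 7 October, against 7.11% and 6.39% on 5 September. At Hokkaido it was 2.19% and 2.27% on 11 October, against 2.59% and 2.91% on 7 September, with 5.44% and 5.02% on 13 August. In early October, these genes together thus held a higher share of the TPM in the Tsukuba buds than in the Hokkaido buds. The Fukuoka buds of late September were at 2.41% and 3.22%. Abundant genes weigh most in such a share, so it does not describe each gene. The median change of the 956 genes was 0.26 over the later Tsukuba step and -0.09 over the later Hokkaido step.

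Of the rising genes, 196 of 1671 were higher in the earlier Hokkaido step, from 13 August to 7 September (11.7%, background 2.26%), and 44 were lower (2.63%, background 3.14%). In the earlier Tsukuba step 89 were higher (5.33%, background 0.859%) and 7 were lower (0.419%, background 1.86%). In the later Hokkaido step 75 were higher (4.49%, background 2.02%) and 48 were lower (2.87%, background 2.33%). In the later Tsukuba step more were lower than higher, with 53 higher (3.17%, background 1.34%) and 86 lower (5.15%, background 2.29%). Of the 989 genes that rose without the 26 September library of tree 2, 156 were higher (15.8%) and 16 lower (1.62%) in the earlier Hokkaido step. In the earlier Tsukuba step 46 of the 989 were higher (4.65%) and 5 lower (0.506%). In the later Hokkaido step the shares were nearly equal, with 46 higher (4.65%) and 43 lower (4.35%). In the later Tsukuba step 29 were higher (2.93%) and 62 lower (6.27%). Across all 40161 genes, the Fukuoka change correlated with the earlier Hokkaido step at r = 0.322, the earlier Tsukuba step at 0.242, the later Hokkaido step at 0.102 and the later Tsukuba step at -0.081. The order of the earlier steps differed between the trees: the change in tree 2 gave 0.305 for Hokkaido and 0.071 for Tsukuba, and that in tree 3 gave 0.240 for Hokkaido and 0.364 for Tsukuba. For the later steps tree 2 gave 0.022 for Hokkaido and -0.016 for Tsukuba, and tree 3 gave 0.164 for Hokkaido and -0.131 for Tsukuba. These are descriptions across genes that share libraries within each step, with no p.

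**Figure D5:**
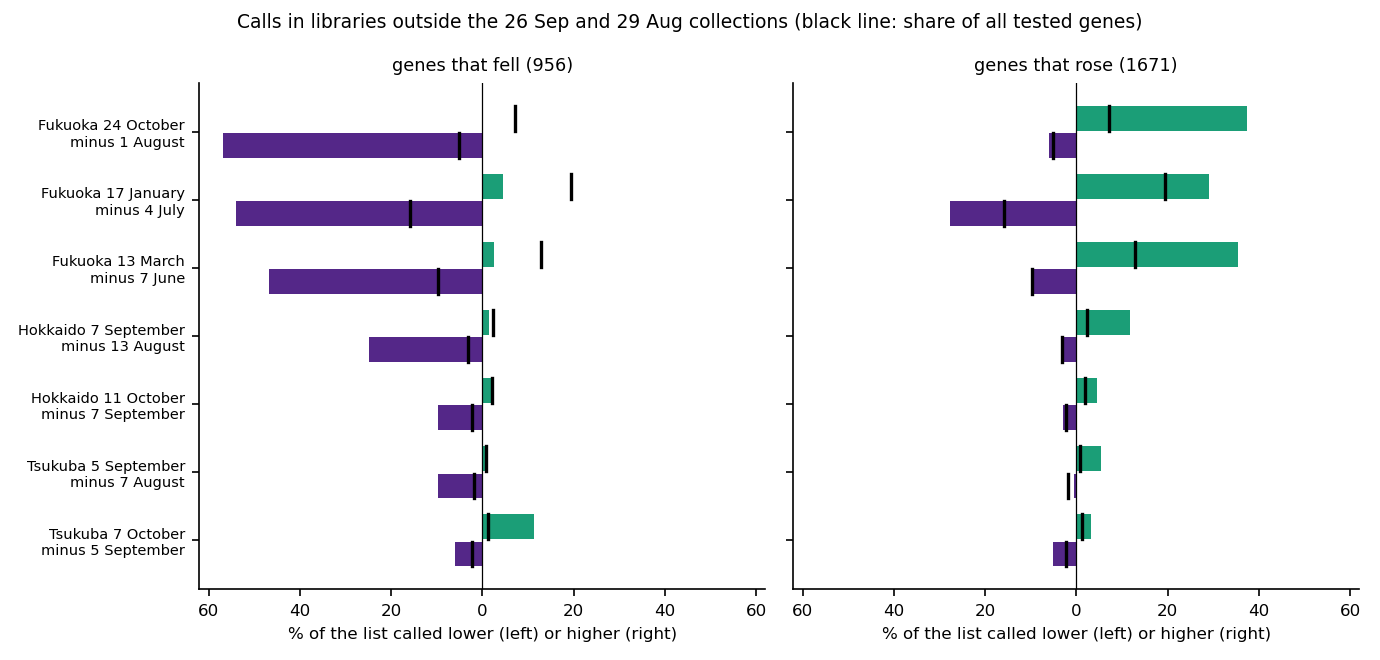
Share of the 956 genes that fell and of the 1671 genes that rose from 29 August to 26 September that were called lower (left) or higher (right) in 7 contrasts of libraries outside these dates, in percent. Black lines give the share of all 40161 tested genes called in that direction. The genes that fell were called lower in 56.9% of cases on 24 October against 1 August at Fukuoka, and higher in 11.3% from 5 September to 7 October at Tsukuba.

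Whole libraries were also set against the other sites. Each was correlated with the mean of each bud date there. For tree 3 on 26 September the closest were Tsukuba of 7 August (r = 0.946) and Hokkaido of 7 September (0.941). Next came Tsukuba of 5 September (0.945) and Hokkaido of 13 August (0.940). For tree 2 on 26 September the closest were Tsukuba of 5 July (0.912) and Hokkaido of 7 September (0.895). Next came Tsukuba of 5 September (0.904) and Hokkaido of 11 October (0.890). For 26 September these values hardly separate the closest date from the next. The buds of 29 August correlated most closely with Tsukuba of 7 August (0.967 for tree 2, 0.961 for tree 3) and Hokkaido of 13 August (0.920 and 0.917). The tree 2 library of 26 September had the lowest of these closest correlations at either site.

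In leaves against buds of the same Fukuoka trees on 7 June, 4 July and 1 August, 456 of the falling genes were lower in leaf (47.7%, background 23%) and 81 were higher (8.47%, background 9.31%). Of the rising genes 717 were lower in leaf (42.9%) and 238 were higher (14.2%). The 319 of them far higher in tree 2 on 26 September had 95 lower (29.8%) and 71 higher (22.3%). The other 1352 had 622 lower (46.0%) and 167 higher (12.4%). Of the 989 that rose without the 26 September library of tree 2, 371 were lower (37.5%) and 135 higher (13.7%). RNA was extracted by different methods from leaf and bud, so tissue and method cannot be told apart there. The gene IDs carry the letters SPA or SPE, which the sources used here do not explain: SPA stood in 832 of the rising and 495 of the falling IDs, 49.8% and 51.8%, against 52.1% of those tested. In the order of the table, 12.7% of the rising genes stood next to another rising gene, where 4.85% of all tested genes did, and 11.3% of the falling genes next to another falling gene, where 2.98% did, in runs of at most 3.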

How the data were processed

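RNA was measured in apical buds and leaves of the cherry trees by paired reads of 151 bases, per the labels' protocols. The authors deposited TPM values for 95076 gene IDs and 90 libraries. Tools listed in the submitters' processing notes are StringTie 1.3.5, STAR 1.5.2 and fastp 0.20.0. Genome build and annotation were not given in the sources used here. Every library sums to the same total, so depth is unknown and no counting interval can be given. Of the IDs, 28911 were at 0 in every library. The protocol given for bud libraries also speaks of RNA from leaves, but each library was assigned by its tissue label.

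Values were taken as log2(TPM + 1). limma 3.58.1 in R 4.3.3 (tables read with data.table, version 1.17.8) fitted 1 mean for each of 33 site-date groups of the 66 bud libraries, for the 40161 genes that averaged 1 TPM or more over the buds. Leaf against bud was fitted in the same way over all 45 groups of the 90 libraries. Contrasts were moderated with eBayes, and p-values were adjusted by Benjamini-Hochberg over all genes tested. A call needed an adjusted p under 0.05 and a change of at least 1. The p-values measure the spread between trees and library work together. The fit was checked first on simulated data with known changes, in which a gene had the same independent spread in every library. That check could not test a library with extra spread, such as that of tree 2 on 26 September. Named genes were the 2 largest called rises and 2 largest called falls in a comparison with a mean of at least 5 TPM in its libraries and the same sign in each tree. The members, lists and comparisons were chosen with earlier results of these data known. Replicate numbers mark the same tree on every date, which pairs the libraries. The difference between the trees on 29 August correlated with that on 26 September at r = -0.087, and over the 55 pairs of Fukuoka dates the median was 0.043. Alternatives covered the pseudocount, filter, scaling, eBayes options, a tree block, the libraries fitted, the minimum change, and leaving out trees. Plots used matplotlib.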

Additional observations from a re-analysis of the deposited data

Results flagged for a closer look

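The change at Fukuoka from 29 August to 26 September differed from each of the 4 steps at the other sites by the test of the difference itself (limma, adjusted over all genes). It differed in 4041 genes (10.1%) from 5 September to 7 October at Tsukuba and in 3700 (9.21%) from 7 September to 11 October at Hokkaido. For the earlier steps it differed in 2858 (7.12%) from 7 August to 5 September at Tsukuba and in 1795 (4.47%) from 13 August to 7 September at Hokkaido. All 4 tests use the same Fukuoka libraries, so they are not separate results. Fitted on the libraries compared alone, the counts in this order were 769, 301, 74 and 68.

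Of the named genes, CYE_r3.1SPE4_g009480.1 changed more negatively at Fukuoka by -9.90 and -6.57 than over the later and the earlier Tsukuba step, and by -7.87 and -5.87 than over the later and the earlier Hokkaido step, on the log2(TPM + 1) scale. CYE_r3.1SPA2_g034430.1 differed by -10.54 from the later and -4.66 from the earlier Tsukuba step and by -7.66 from the later Hokkaido step. Its difference of -1.75 from the earlier Hokkaido step was not called (adjusted p = 0.288, limma). At Hokkaido CYE_r3.1SPE4_g009480.1 was low on every date, and CYE_r3.1SPA2_g034430.1 was low from the start of the later step. In those steps neither had room for a fall as large as at Fukuoka, so part of each difference comes from the low level.

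The named rises were set against the same steps. These genes, like the named falls, were chosen for large changes at Fukuoka, CYE_r3.1SPA2_g014330.1 after its values were seen. Each difference holds the same Fukuoka libraries. Large differences were thus largely fixed by the choice and are no further evidence. CYE_r3.1SPA2_g014330.1 changed more positively at Fukuoka by 4.79 and 4.31 than over the later and the earlier Tsukuba step, and by 4.63 and 4.46 than over the later and the earlier Hokkaido step. For CYE_r3.1SPE0_g138680.1 these differences were 6.94, 6.40, 7.22 and 7.19, and for CYE_r3.1SPE3_g019780.1 they were 6.84, 6.29, 7.11 and 7.05, both with tree 2 far above tree 3 on 26 September.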

How the results depend on the processing

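Of 169 counts of calls recomputed under 21 alternatives, 129 stayed within 1.5 times the reported count. With tree as a replicate block, 2713 genes were called from 29 August to 26 September, and no count moved by over 1.5 times. Limits: 2 trees per date, an error borrowed from all site-date pairs, TPM without depth, and IDs without names. Fitted on the 4 libraries alone the comparison gave 101 calls, 11 rising and 90 falling, of which 9 and 89 were also called with all libraries; the other 2 Fukuoka intervals gave 0 each in limma, with 2094 (29 August against 1 August) and 8054 (24 October against 26 September) genes at an unadjusted p under 0.05. The site differences then numbered 769 (later Tsukuba), 301 (later Hokkaido), 74 (earlier Tsukuba) and 68 (earlier Hokkaido); the cause was not tested.

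Without a minimum change, calls were 8660 on 26 September against 29 August, 4847 on 24 October against 26 September, 15292 on 24 October against 1 August, 26121 on 17 January against 4 July, 20370 on 13 March against 7 June, 30262 in leaf against bud, and 7005 (later Tsukuba), 6832 (later Hokkaido) and 5874 (earlier Tsukuba) for the site differences. For 29 August against 1 August, log2(TPM + 0.1) gave 17 calls, no filter 51 and library weights (limma arrayWeights, chosen after seeing the data) 18. A mean of at least 5 TPM gave 5820 on 13 March against 7 June. Library weights gave 1875 for 26 September against 29 August, and 2465 (later Hokkaido), 1898 (earlier Tsukuba) and 974 (earlier Hokkaido) for the site differences.

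Leaving out a tree, or 1 of the 4 libraries (chosen after seeing the data), gave 1731 calls (26 September tree 2 left out) to 3473 (26 September tree 3) on 26 September against 29 August. It gave 5 (tree 2 on all dates) to 53 (29 August tree 2) on 29 August against 1 August, and 54 (tree 2 on all dates) to 2513 (26 September tree 3) on 24 October against 26 September. For the site differences it gave 2836 (Tsukuba replicate 1) to 4455 (26 September tree 3) for the later Tsukuba step, 2307 (tree 2 on all dates) to 4537 (26 September tree 3) for the later Hokkaido step, 796 (tree 2 on all dates) to 3847 (26 September tree 3) for the earlier Tsukuba step, and 980 (Hokkaido replicate 1) to 2411 (26 September tree 3) for the earlier Hokkaido step. For the unused Fukuoka dates it gave 3576 to 4403 on 24 October against 1 August, 12834 to 14269 on 17 January against 4 July, 7534 to 8580 on 13 March against 7 June, and 12543 to 13740 in leaf against bud. None of the 6 genes recomputed for 26 September against 29 August changed sign. CYE_r3.1SPE4_g009480.1 and CYE_r3.1SPA2_g034430.1 were called in all 17 settings. CYE_r3.1SPE0_g138680.1 and CYE_r3.1SPE3_g019780.1 were not called on the 4 libraries alone (adjusted p = 0.202 and 0.206, limma) or without tree 2 on all dates (0.0618 and 0.0559), nor was CYE_r3.1SPA2_g014330.1 on the 4 libraries alone (0.167).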
